A study of Drosophila melanogaster with 2 samples.

Results

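The genes described here make the small stable RNAs of the nucleus: 306 of the 18164 annotated genes on the 6 chromosome arms of the fly genome (assembly dm6), taken by symbol as every gene named snRNA:, snoRNA: or scaRNA:. They comprised 32 snRNA, 257 snoRNA and 17 scaRNA genes, between 46 and 511 bp long with a median of 135 bp. The data came from chromatin immunoprecipitation and sequencing (ChIP-seq) of E(spl)m8-HLH, a Hairy/E(spl) family transcriptional repressor that is a target of Notch signalling. A transgenic Drosophila melanogaster line carried the protein with GFP at its C-terminus, and an anti-GFP antibody pulled down chromatin from embryos, males and females together and 4 to 14 h old, sonicated to 200 to 800 bp. There were 2 biological replicates (numbers 2 and 3) of a single condition, and the control library was not analysed here. What drives the fusion gene was not stated, and whole embryos mix many cell types, so a peak does not say in which cells or in how many the protein sat. The peak lists hold no expression values, so the labelled stage could not be checked against marker genes.

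The U1, U2, U4, U5 and U6 snRNAs form the spliceosome that removes introns from messenger RNA, U11, U12, U4atac and U6atac serve the minor spliceosome, U7 takes part in processing histone mRNA, and 7SK holds the elongation factor P-TEFb inactive. Most snRNA genes have promoters of their own, in flies with a proximal sequence element (PSEA) that recruits the complex SNAPc. U6, U6atac and 7SK are made by RNA polymerase III and add a TATA box, whereas the other spliceosomal snRNAs are made by RNA polymerase II. Box C/D snoRNAs guide 2′-O-methylation and box H/ACA snoRNAs guide pseudouridylation of ribosomal RNA, and scaRNAs guide the same changes on snRNAs in Cajal bodies. In animals, most snoRNAs are cut out of the introns of host genes, many of which encode ribosomal proteins, and some hosts (the Uhg genes) make no known protein.

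The promoters below are shown because the snRNA summits lay in or beside genes of this kind. Each runs from 75 bases before to 20 bases after the annotated start, 5′ to 3′ on the gene's strand, read from the Release 6 (dm6) sequence, with the RNA starting at the last 20 bases. Capitals mark the letters ATTCNCAA, which fall within the PSEA, TATATA or TATAAA where found in the last 35 bases before the start, and CACGCG in U1:95Ca.
snRNA:U1:21D promoter (chr2L:901635-901729, minus strand): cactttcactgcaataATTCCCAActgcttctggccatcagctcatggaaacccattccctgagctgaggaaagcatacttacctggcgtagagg
snRNA:U1:95Ca promoter (chr3R:23859611-23859705, minus strand): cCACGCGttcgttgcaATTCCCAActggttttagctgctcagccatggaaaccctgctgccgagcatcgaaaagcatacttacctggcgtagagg
snRNA:U1:82Eb promoter (chr3R:4948077-4948171, minus strand, no optimal summit nearby): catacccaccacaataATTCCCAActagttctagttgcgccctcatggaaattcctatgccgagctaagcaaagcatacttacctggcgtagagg
snRNA:U2:34ABb promoter (chr2L:13215764-13215858, plus strand): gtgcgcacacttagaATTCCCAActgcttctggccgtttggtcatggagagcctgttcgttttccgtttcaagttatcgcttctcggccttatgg
snRNA:U4:39B promoter (chr2L:21215159-21215253, minus strand): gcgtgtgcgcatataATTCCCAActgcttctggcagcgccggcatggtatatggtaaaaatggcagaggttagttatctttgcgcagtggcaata
snRNA:U5:63BC promoter (chr3L:3090726-3090820, plus strand): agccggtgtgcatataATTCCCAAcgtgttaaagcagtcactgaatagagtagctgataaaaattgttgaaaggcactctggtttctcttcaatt
snRNA:U6:96Ac promoter (chr3R:24557140-24557234, plus strand): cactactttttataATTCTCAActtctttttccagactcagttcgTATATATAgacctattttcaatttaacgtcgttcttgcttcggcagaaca
snRNA:7SKa promoter (chr3R:7474977-7475071, minus strand): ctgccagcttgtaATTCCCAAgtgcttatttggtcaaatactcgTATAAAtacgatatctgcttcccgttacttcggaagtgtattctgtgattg
snRNA:7SKb promoter (chr3R:23432794-23432888, plus strand, no optimal summit nearby): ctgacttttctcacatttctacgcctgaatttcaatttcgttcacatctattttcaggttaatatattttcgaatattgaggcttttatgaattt
The letters ATTCNCAA, searched on the gene's strand in the 75 bases before the start, were present in 31 of the 32 snRNA genes (96.9%) and in 145 of the 18132 other genes (0.8%). They began between 65 and 56 bases before the start, with a median of 59. The gene without them was 7SKb. All 11 snRNA genes with a summit nearby and 20 of the 21 without one had them, so the letters did not separate these groups. TATATA or TATAAA occurred in U6:96Aa, U6:96Ab, U6:96Ac, U6atac and 7SKa. Among snoRNA and scaRNA genes 7 of 274 (2.55%) held ATTCNCAA, U3:54Aa, U3:54Ab and U3:9B among them, whose RNA takes part in cleaving the ribosomal RNA precursor. These letters and both search windows were chosen after the promoters had been read.

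The following windows show the strongest summit at any member and 3 summits with the palindrome TATCGATA, a form of the DNA replication-related element. Each spans 101 bases on the plus strand with the summit in the middle, and capitals mark TATCGATA. The Stt3A and nop5 windows are at the weaker of 2 summits at each gene, with signals of 373.3 and 177.2.
CG1142 summit window (chr3R:7473906-7474006, plus strand): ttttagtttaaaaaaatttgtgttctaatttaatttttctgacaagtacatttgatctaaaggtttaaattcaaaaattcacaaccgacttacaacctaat
RpL28 summit window (chr3L:3222979-3223079, plus strand): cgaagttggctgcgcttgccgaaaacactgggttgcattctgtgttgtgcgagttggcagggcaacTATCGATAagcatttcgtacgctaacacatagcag
Stt3A summit window (chrX:21053244-21053344, plus strand): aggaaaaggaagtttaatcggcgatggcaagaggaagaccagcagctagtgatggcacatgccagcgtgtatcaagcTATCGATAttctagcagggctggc
nop5 summit window (chr2L:6919140-6919240, plus strand): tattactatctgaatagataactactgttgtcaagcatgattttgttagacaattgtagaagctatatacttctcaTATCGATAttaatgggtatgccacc
A box C/D and a box H/ACA snoRNA gene follow, as examples of the RNAs themselves. Both lie in introns of bound hosts, Stt3A and RpS29. Capitals mark box C (TGATGA) and box D (CTGA) in the former and the ACA box near the 3′ end in the latter.
snoRNA:Me28S-U3344a (chrX:21052283-21052361, minus strand): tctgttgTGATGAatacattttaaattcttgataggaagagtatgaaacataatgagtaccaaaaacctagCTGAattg
snoRNA:Psi18S-1275 (chr3R:9778398-9778537, plus strand): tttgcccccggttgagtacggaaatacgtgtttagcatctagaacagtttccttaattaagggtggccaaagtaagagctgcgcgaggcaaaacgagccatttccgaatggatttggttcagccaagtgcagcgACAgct
TGATGA was found in 71% of the 107 genes named as box C/D and in 3.31% of the 121 named as box H/ACA, and ACA within the last 8 bases in 94.2% of the latter.

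A gene was called bound when a summit of the authors' optimal peak list lay in it or within 2 kb, a word that says where the summit was and not which gene it serves. By that rule 134 of the 306 members were bound (43.8%), against 34.2% of all genes. Only 24 members (7.84%) had a summit within 500 bp, against 24.2% of all genes, and 6 (1.96%) had it inside the gene, against 11.5%. Members are short, and a long gene offers more bases to a summit. The 2493 other genes no longer than 511 bp were bound in 18.7% of cases within 2 kb, in 7.5% within 500 bp and in 1.64% inside the gene. The members' share was above that of other short genes at 2 kb and close to it at 500 bp and inside the gene. Of all bases on the arms, 14.5% lay within 2 kb of a summit and 4.36% within 500 bp. No test was made, since neighbouring members share hosts and summits: 78 summits accounted for the 134 genes, and 38 of these were shared by more than 1 member, with up to 7 members to a summit.

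**Figure D1:**
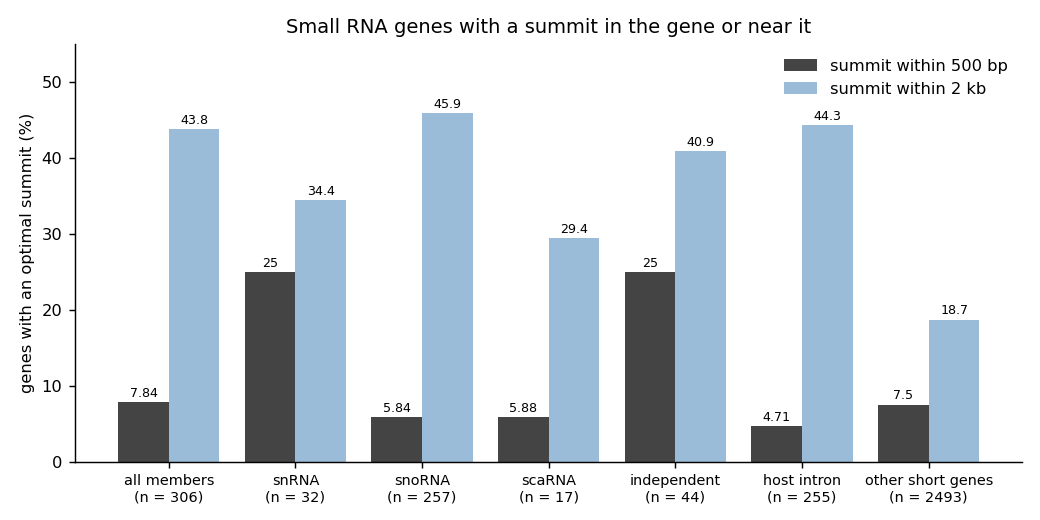
Percent of genes with an optimal summit in the gene or within 500 bp (dark) or 2 kb (light), for all 306 members, each class, independent and host-intron members, and 2493 other short genes. At 500 bp the snRNA and the independent genes reach 25%, close to the 24.2% of all genes (not drawn), against 4.71% of members in host introns. At 2 kb host-intron members reach 44.3% and independent members 40.9%, against 34.2% of all genes.

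The 3 classes differed in how close the summits came. Of the snRNA genes, 11 of 32 were bound (34.4%), and for 8 of them (25%) the summit was within 500 bp. Both shares are close to those of all genes, 34.2% and 24.2%, and above those of other short genes, 18.7% and 7.5%. Of the snoRNA genes, 118 of 257 were bound (45.9%) but 15 (5.84%) within 500 bp. Of the scaRNA genes, 5 of 17 were bound (29.4%) and 1 (5.88%) within 500 bp. A summit lay inside the gene for 5 snRNA genes and 1 snoRNA gene. The snoRNA gene was Psi18S-176, in no host intron, with a summit signal of 229.7 in the optimal list, 77.50 in replicate 2 and 142.4 in replicate 3. The signal is the authors' enrichment value for a peak, with no unit, and is set side by side only within a list.

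Location followed the same line. By annotation 255 members lay wholly in an intron of a gene on the same strand, 44 were independent and 7 overlapped an exon of another gene. Within 2 kb, 34.2% of all genes and 18.7% of other short genes were bound. Of the host-intron members 113 (44.3%) and of the independent ones 18 (40.9%) were, a difference of 3.405 percentage points. That gap was not stable: without replicate 3 it was 12.89 points (44.7% against 31.8%), and in the stronger 50% of the optimal list 17.42 points (33.3% against 15.9%). Within 500 bp the order turned, with 12 (4.71%) against 11 (25%), beside 24.2% of all genes and 7.5% of other short genes. The independent share is close to that of all genes. Counting introns on either strand left 26 independent members, of which 46.2% were bound at 2 kb against 44.2% of 274 in introns, so the order at 2 kb rests on the definition. The independent snRNA genes were bound in 8 of 21 cases, 7 within 500 bp, the snRNA genes in host introns in 3 of 11, 1 within 500 bp, and the independent snoRNA genes in 8 of 21, 3 within 500 bp.

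All 3 U6 genes had the same summit nearby. U6:96Aa, U6:96Ab and U6:96Ac, which encode the catalytic RNA of the spliceosome with identical sequences over 107 bases, lay 942, 338 and 79 bp from it. The peak's signal was 198.3 in the optimal list, 87.18 in replicate 2 and 100.3 in replicate 3. The summit was 79 bases before the start of U6:96Ac, just outside the promoter shown.

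U1 RNA recognises the 5′ splice site, and 2 of its 5 genes were bound (40%), beside 34.2% of all genes. U1:21D had a summit inside the gene, 152 bases from its start, with signals of 307.6 in the optimal list, 139.6 in replicate 2 and 161.5 in replicate 3. U1:95Ca had one 32 bases before its start, with 207.8, 123.4 and 105.6. That summit falls within the promoter shown, and its window holds CACGCG, a sequence that Hairy family proteins are known to bind. U1:82Eb, U1:95Cb and U1:95Cc had none. U1:95Cb is identical to both bound copies over 164 bases, U1:82Eb differs from U1:21D at 2 of 164 bases, and their nearest peaks differed by list. U1:82Eb had a replicate 2 peak inside the gene (signal 50.34, rank 11038 of 30000), while the nearest replicate 3 summit was 4502 bp away.

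U2 RNA pairs with the branch point, and 2 of its 6 genes were bound (33.3%), beside 34.2% of all genes. U2:34ABb held a summit 183 bases from its start, with signals of 256.0, 153.2 and 96.55 in the optimal, replicate 2 and replicate 3 lists. Its identical copy U2:34ABc had no optimal summit within 2 kb, and its replicate peaks had signals of 35.99 and 42.69. U2:38ABa lay 1555 bp from a summit that was 820 bp from U5:38ABb, a gene in an intron of sick, with signals of 208.5, 139.3 and 64.99.

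U5 RNA aligns the exons for joining, and U4 RNA keeps U6 inactive until the spliceosome is assembled. U5:63BC held a summit 113 bases from its start, with signals of 241.2, 160.4 and 79.62. With U5:38ABb it made 2 bound genes of 7 (28.6%), beside 34.2% of all genes. U4:39B, in an intron of Atg18b, held a summit 54 bases from its start, with signals of 218.3, 111.3 and 39.82, and was the bound gene among 3 for U4. The peak of U4:39B ranked 4413 in replicate 2 and 16968 in replicate 3 among 30000 peaks each, the farthest down that list of any bound snRNA gene.

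7SKa had the strongest summit within 2 kb of any snRNA gene, but that summit lay before the start of a neighbouring gene. 7SKa itself held a summit 182 bases from its start with signals of 331.3, 145.9 and 191.3, and the far stronger one lay 597 bp beyond its 3′ end. That peak had a signal of 2132.9 and ranked 55 of 6152, with 1250.8 (rank 39) in replicate 2 and 888 (rank 86) in replicate 3. It was 175 bp before the start of CG1142, and its window is the one printed for that gene. 7SKb had no optimal summit within 2 kb. The single genes of U7, U11, U12, U4atac, U6atac and LU had none either. In the replicate lists U7 had a replicate 2 peak inside the gene (34.13) and a replicate 3 summit 83 bp away (57.48).

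Apart from the peak at CG1142, the snRNA summits were of modest rank. The 9 summits at snRNA genes had a median signal of 241.2, against 289.8 over all 6152 optimal peaks, and 6 of them were below that value. In replicate 2 their signals ran from 87.18 to 1250.8 with a median of 139.6, and in replicate 3 from 39.82 to 888 with a median of 100.3. All 9 overlapped a peak in both replicates by at least 50% of each peak, as did 79.3% of all optimal peaks. With the 6152 strongest peaks of replicate 3 alone, 7 snRNA genes were bound, and U2:38ABa, U5:38ABb, U4:39B and U5:63BC dropped out. With those of replicate 2 alone, the same 11 genes were counted. Of the 9 summits 1 (11.1%) was within 500 bp of the start of a gene that is no member, against 40% of all optimal summits. The placement of reads from identical copies was not stated, and its part in which copies had a peak was not tested. Across the members 12 genes had an identical copy and 8 of them were bound.

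**Figure D2:**
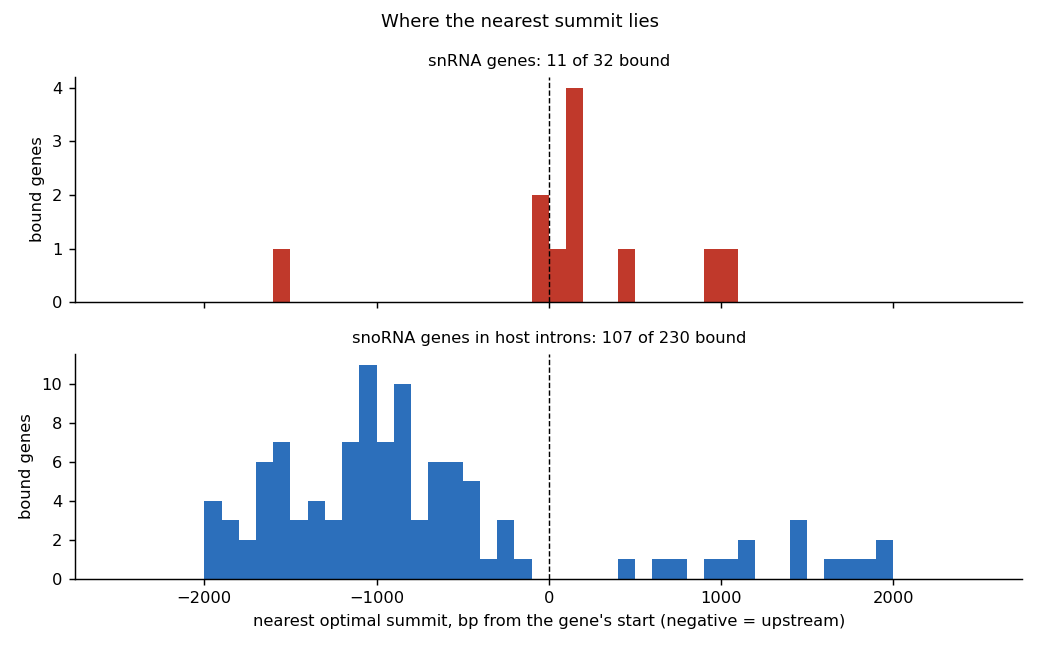
Position of the nearest optimal summit relative to the start of each bound gene, in bins of 100 bp, negative upstream, for 11 snRNA genes (top) and 107 snoRNA genes in host introns (bottom). Most snRNA summits lie within 500 bp of the gene's start, whereas the snoRNA summits lie mostly upstream, with none inside the gene.

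The snoRNA summits lay at the starts of other genes, mostly the hosts, more often than at the snoRNA genes. Of the 68 summits at snoRNA genes, 52 (76.5%) lay within 500 bp of the start of a gene that is no member. The nearest summit was upstream of 95 of the 113 bound host-intron members, and 85 of the 113 (75.2%) had a summit within 500 bp of a start of their host. In 13 a summit within 2 kb was in the same intron as the member: 4 in lola, 3 in pAbp and 1 each in Dys, drn, hts, tn, sick and Atg18b. The bound host-intron members lay a median of 966 bp from the nearest start of their host, the unbound ones 2504 bp. The 2 kb rule favours that order wherever the summit is at the host start.

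The 10 strongest summits at snoRNA or scaRNA genes began with the peak at CG1142 (2132.9), whose intron holds scaRNA:MeU5-C46. The next, in front of Stt3A, a subunit of the oligosaccharyltransferase, and its neighbour bves, had signals of 1491.0 in the optimal list, 774.2 in replicate 2 and 717.1 in replicate 3, and was 1980 bp upstream of Me28S-U3344a. An intronic peak of Dys, the fly dystrophin gene, had signals of 1038.3, 545.5 and 486.2 and lay 1265 bp upstream of Me18S-A1374. Peaks at the ribosomal protein genes RpL14 (961.7, 563.9 and 388.8), RpL23A (837.8, 519.8 and 325.2), RpL13A (710.2, 437.3 and 288.5) and RpL11 (690.9, 361.7 and 328.9) were all within 114 bp of the host start. The other 3 were at Uhg4 (876.6, 536.0 and 346.8), at Irbp and its neighbour mgr (842.2, 480.1 and 371.5), and in an intron of drn (684.0, 351.3 and 342.9). Of the 10, 8 lay within 500 bp before the start of a gene that is no member.

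The members had 96 hosts, of which 69 (71.9%) were bound and 59 (61.5%) had a summit within 500 bp of a start, beside 36.8% and 20.4% of all protein-coding genes. Ribosomal protein genes made up 29 of the hosts, and 25 of them (86.2%) had such a promoter summit. Their strongest promoter signals ran from 188.4 to 961.7 with a median of 417.1, and the summits sat between 129 bp before and 88 bp after a start, with a median of 5 bp before it. In the replicates the medians were 244.5 and 190. Of the 6 Uhg hosts 5 were bound and 3 had a promoter summit, and of 59 other protein-coding hosts 38 were bound and 31 had one.

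The share of bound members differed by type of host. In ribosomal protein genes 54 of 74 members (73%) were bound, in Uhg genes 23 of 44 (52.3%) and in other protein-coding genes 35 of 135 (25.9%). Of all genes 34.2% were bound and of other short genes 18.7%, so the share in other protein-coding hosts was below that of all genes. All 54 in ribosomal protein genes had a summit within 500 bp of the host's start. Distance to that start went along with this order. Of members within 2 kb of a host start 99 of 155 (63.9%) were bound, and of those farther away 14 of 100 (14%). This split partly restates the rule, since 2 kb is also the limit for a bound gene. A summit at a host start is mostly out of reach of a member more than 2 kb away. With a limit of 5 kb the counts were 127 of 155 (81.9%) and 44 of 100 (44%). Ribosomal protein genes are short, and 67 of their 74 members lay within 2 kb. Among members that near, 54 of 67 in ribosomal protein hosts, 20 of 32 in Uhg hosts and 24 of 54 in other protein-coding hosts were bound. The host groups and the split at 2 kb from a start were chosen after the values had been seen.

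**Figure D3:**
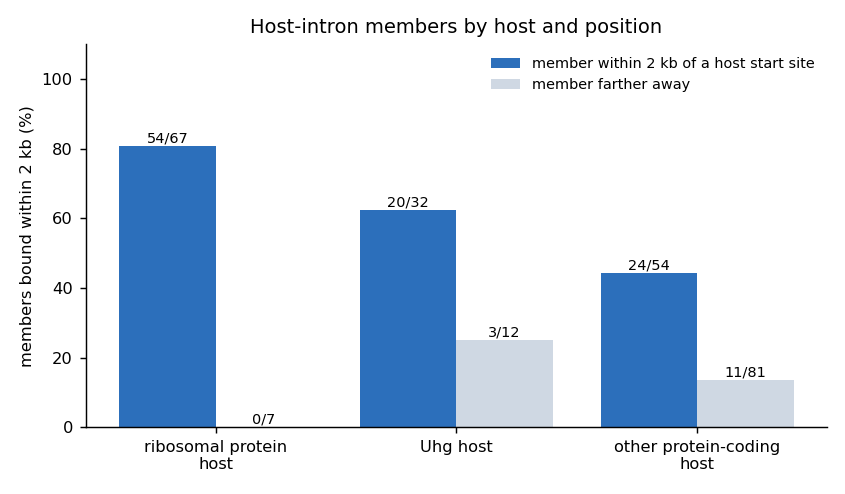
Percent of host-intron members bound within 2 kb by type of host, for members within 2 kb of a host start (blue) and farther away (grey), with bound and total counts above the bars. Near the start 54 of 67, 20 of 32 and 24 of 54 members were bound; farther away 0 of 7, 3 of 12 and 11 of 81. The split is at the same 2 kb as the rule for a bound gene. By that rule 34.2% of all genes and 18.7% of other short genes were bound. The 2 members in other non-coding hosts are not drawn.

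In single hosts a summit at the start was within 2 kb of some members and not of others. RpL28 holds 5 box C/D snoRNAs, all bound, at 488 to 1602 bp from a promoter peak with signals of 646.4 in the optimal list, 416.6 in replicate 2 and 224.5 in replicate 3. RpS16 holds 5, all bound (529.8, 320.5 and 216.7), and RpS7 holds 7, of which 6 were bound (412, 232.2 and 206), with Psi28S-2149 at 2021 bp just outside. RpS5a holds 14 pseudouridylation guides, of which the 3 nearest its promoter peak (461.3, 293.4 and 169.7) were bound. The other 11 lay up to 4278 bp from it. Arpc2, a subunit of the Arp2/3 actin nucleator, holds 17 copies of the guides Psi18S-525 and Psi18S-640 in a row. Its promoter peak (250.5, 138.6 and 94.72) was within 2 kb of 4 of them and up to 5051 bp from the rest. Nop60B, the pseudouridine synthase of the box H/ACA particle, had a promoter peak (235.2, 109.1 and 114.6) near 1 of its 7 members, and the other 6 sat more than 10 kb away.

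Other large hosts had no optimal summit near their members. Uhg1, with 16 members, and dom, a chromatin remodeller with 15, had no optimal summit in the gene or within 2 kb, and their members were at least 13496 and 28508 bp from the nearest. Sf3b3, a splicing factor with 9 members, Hrb98DE, an hnRNP with 7, and CG10576 with 5 were also unbound. The host kra had a promoter peak (280, 174.5 and 84.65) but its 8 members began 2490 bp from it. Among the Uhg genes, Uhg4 had all 7 members bound by its promoter peak, 72 bp before the start. Uhg5 had 7 of 11 bound by a peak 3085 bp past its start (296, 156.3 and 141.1), beyond the gene's 3′ end, so that in Uhg5 the members farthest from the start were the bound ones.

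**Figure D4:**
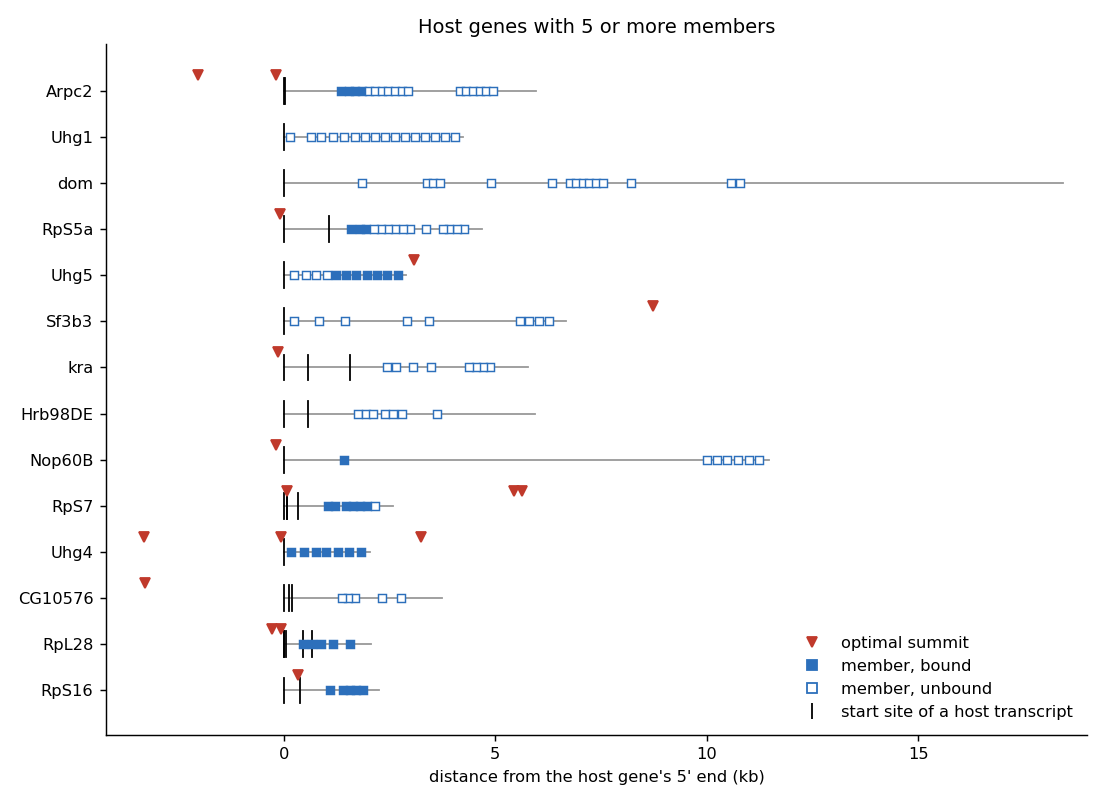
The 14 hosts with 5 or more members drawn to scale from their 5′ end in kb, with members as squares (filled when bound within 2 kb), host transcript starts as vertical bars and optimal summits in the gene or within 4 kb as triangles. In RpL28, RpS16, RpS7 and Uhg4 a summit sits near a start and nearly all members are filled, while Uhg1, dom and Hrb98DE have no summit.

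The 5 bound scaRNA genes had summits some way off. MeU5-C46, which guides methylation of U5, lay 734 bp from the peak at CG1142. MeU1:95C-A24 shared the U1:21D summit (307.6) at 474 bp, and MeU1b-A234, PsiU6-40 and MeU2-C28 lay 824, 1426 and 1560 bp from peaks with signals of 429, 301.6 and 373.3. The replicate signals of those 3 peaks were 244.3 and 193.4, 192.9 and 124.5, and 183.2 and 182.9. Of 14 scaRNA genes in host introns 3 were bound (21.4%), beside 18.7% of other short genes and 34.2% of all genes. The 2 independent scaRNA genes were both bound.

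By the guide type in their names, 53 of 107 box C/D genes (49.5%), 45 of 121 box H/ACA genes (37.2%) and 25 of 46 whose name gives neither (54.3%) were bound, beside 34.2% of all genes and 18.7% of other short genes. The box H/ACA share is close to that of all genes. Near the limits the calls turned on a few bases. Or-aca5 (484 bp) and Or-CD11a (488 bp) were just inside 500 bp, and Or-CD13 (505 bp) and Me18S-C1096 (506 bp) just outside. Psi18S-531 (1957 bp) and Me28S-A2634b (1983 bp) were just inside 2 kb, and Psi28S-2149 (2021 bp) and Me28S-U1848 (2037 bp) just outside.

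Both replicates held most of these peaks, but the authors made the optimal list from both replicates. The counts that follow are therefore no independent support. Of the 78 summits 77 had a peak that overlapped one of replicate 2, and 76 one of replicate 3. Over all 6152 optimal peaks these counts were 6124 and 6085. With at least 50% overlap of both peaks, 63 (80.8%) matched a peak of each replicate, against 79.3% of all optimal peaks. The median signal of the 78 was 300, against 289.8. In the replicates' own lists of 30000 peaks, 208 members (68%) had a summit within 2 kb in both, and so did 131 of the 134 bound ones. Lists this long place a summit near many genes. No share of other genes in both replicate lists is given here, so these counts have no background beside them. In the longer list of the whole series, also of 30000 peaks, 219 members (71.6%) had a summit within 2 kb and 85 (27.8%) within 500 bp, against 49% and 29.2% of other short genes. By class 13 of 32 snRNA genes (40.6%) and 70 of 257 snoRNA genes had a summit of this list within 500 bp.

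**Figure D5:**
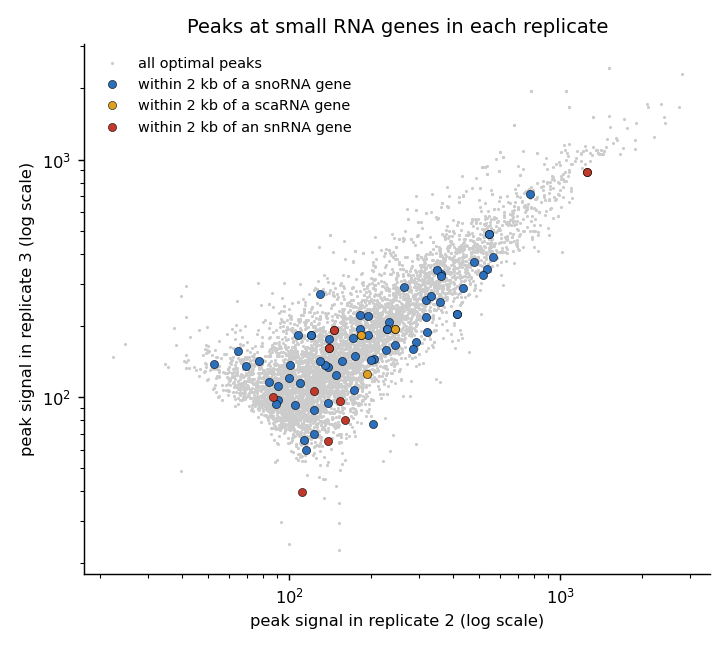
Authors' peak signal in replicate 2 (x axis) and replicate 3 (y axis), both on log scales, for all optimal peaks found in both (grey) and those within 2 kb of a snoRNA (blue), scaRNA (yellow) or snRNA gene (red, drawn last). The peak at the top right among the coloured points is the one at CG1142 (1250.8 and 888); the lowest is the one in U4:39B (111.3 and 39.82).

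Searched on both strands within 50 bp of the summit, CACGTG was found at 1.28% of the 78 summits and 2% of all optimal summits, and CACGCG at 2.56% and 3.32%. Both are E-box-like sequences that E(spl) and Hairy proteins are known to bind. TATCGATA was found at 5 of the 78 (6.41%) and 1.14% of all, and the shorter ATCGATA held within it at 8.97% and 2.6%. The sets are unlike in place: 67.9% of the 78 and 40% of all lay within 500 bp of the start of a gene that is no member. The motif shares were not matched for this. The 5 were the windows at RpL28, Stt3A and nop5 shown above and those at RpS12 and RpS29. In the 300 bases around their own starts, members held TATCGATA in 0.98% of cases, against 7.51% of all genes, and CACGTG in 7.52% against 4.21%. No snRNA promoter held CACGTG, and 1 of 32, that of U1:95Ca, held CACGCG.

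Of 45 genes that encode the proteins of these particles or of snRNA gene transcription, 25 (55.6%) were bound, against the 36.8% of protein-coding genes. Of the 45, 15 had the summit within 500 bp of a start of their own, against 20.4% of protein-coding genes. All 4 box C/D core proteins were bound: Fib, the methyltransferase, at 207.8, nop5 at 358, Nop56 at 193.8 and hoip at 376.4. Only 2 of them, Fib and nop5, had the summit within 500 bp of their own start. The Fib summit was 119 bp before its start and nearer that of CG3085, 21 bp past it. That of Nop56 was 800 bp before its start and nearest the start of mats. That of hoip was 873 bp past its start and nearest the start of pelo. Of the box H/ACA core, NHP2 (491.6), Nop10 (340.7) and Nop60B were bound and Gar1 was not. The Nop10 summit was 1420 bp past its start and nearest the start of CG12935. Of the Sm ring 2 of 7 were bound, of the snRNP proteins 3 of 4, and of the assembly and Cajal body genes 2 of 6. Among the snRNP proteins, the summit of snf was nearest the start of dhd and that of snRNP-U1-70K nearest the start of Sumo. Of the snRNA transcription genes, PSEA-binding proteins and Integrator subunits, 10 of 17 were bound. The summit that counts for Pbp49, 1949 bp from it, is the one before the start of coil, a Cajal body gene counted above. The strongest of all was bin3, the 7SK capping enzyme, with signals of 1022.1 in the optimal list, 487.1 in replicate 2 and 550.5 in replicate 3. It was followed by IntS1 (587.7, 314.8 and 279.3), IntS6 (565.6, 327.8 and 233.4), NHP2 and SNRPG (450.3, 197.4 and 247.9). The IntS1 summit was 910 bp outside the gene and 7425 bp past its start. The SNRPG summit given here was 2516 bp past its start and nearest the start of RpS19a. Another optimal summit lay closer to SNRPG, 314 bp from the gene. Hexim and Larp7, the other proteins of the 7SK particle on the list, were unbound.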

How the data were processed

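The data are 4 deposited peak lists on assembly dm6, per the labels: an optimal set of 6152 peaks thresholded by irreproducible discovery rate, a list of 30000 peaks for the whole series, and 30000 for each replicate. The signal of a peak is the authors' value, and the deposited −log10 q-value (4.21 for every optimal peak) is theirs too; neither was recalculated. Not stated in the sources used here are the aligner, caller, threshold and read placement in repeats. Read counts are unknown, so no interval or floor on signal can be given.

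Summits (start plus offset) were compared with the Ensembl 115 annotation of the same assembly, with transposable elements left out, and with the Release 6 sequence, in Python 3.11.15 with pandas 2.3.3 and numpy 2.4.6. A start is that of any annotated transcript. A host is a gene on the same strand with an intron that holds the whole member, the shortest such intron deciding. The search was tested on simulated data, and 60 of 60 planted summits were recovered. Named were all snRNA families, bound scaRNA genes, members at the 10 strongest sno/scaRNA summits, hosts with 5 or more members, members beside the limits and the 5 strongest pathway genes. Members and lists were chosen with earlier results of these data known. All counts are descriptions, with no test. The names of the ribosomal protein hosts without a promoter summit are not reported here. Alternatives covered the flank, stronger peaks, whole peaks, reciprocal overlap, host strand and leaving out each replicate.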

Additional observations from a re-analysis of the deposited data

How the results depend on the processing

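Over 10 results and 74 values under alternatives, 3 turned direction and 14 moved by more than 1.5 times (counts) or beyond a binomial counting interval (differences). That interval treats members as independent, which they are not, and is wide for the 44 independent members. With 500 bp in place of 2 kb the count of bound members went from 134 to 24, of snoRNA genes from 118 to 15, of scaRNA genes from 5 to 1, of host-intron members from 113 to 12, of independent members from 18 to 11 and of distinct summits from 78 to 21. The difference between host-intron and independent members turned from 3.405 to −20.29 percentage points, and that between members and all genes from 9.619 to −16.36. With 5 kb the host-intron count was 171, the summits 127 and members minus all genes 16.36. With introns on either strand, host-intron minus independent was −1.993. The same difference was 14.79 at 5 kb, 17.42 in the stronger 50%, 8.494 with reciprocal overlap, 3.485 with whole peaks, and 4.893 and 12.89 without replicate 2 and replicate 3. In the stronger 50% of the optimal list 2 snRNA genes, 7 independent members and 41 summits remained. With 50% reciprocal overlap in both replicates 3 scaRNA genes were bound.

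Leaving out replicate 2 or 3, the strongest 6152 peaks of the other replicate gave 7 to 11 snRNA genes, the lower value without replicate 2. The cause of these shifts was not tested, apart from the smaller window or list that the 500 bp and stronger-peak settings use by construction. No paired analysis was possible because the samples form 1 group with no second condition. Depth is unknown, so an unbound gene is one with no summit in the list, not one shown to lack the protein.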
